A study of Homo sapiens with 4 samples.

Results

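Plasminogen activation genes encode the enzymes that turn plasminogen into plasmin, the cell-surface receptor that holds one of them, and serpin inhibitors that stop them. The genes described were PLAU, PLAT, PLAUR, SERPINE2 and SERPINB2, chosen by gene name. They are 5 of the 58735 genes counted. Of the 5, 4 passed the filter on low counts that 16343 genes passed, and SERPINB2, the other, had 0 counts in every library. RNA-seq counts were analysed for 4 libraries of MKN-45, an established human gastric cancer cell line grown in DMEM with serum. Control cells carried a control lentivirus and the others a lentivirus meant to overexpress SIX2, a homeobox transcription factor, and all were selected with puromycin as stably infected cells. Each group had 2 libraries, numbered 1 and 2 in their titles, and nothing in the labels says that these came from separate cultures. The labels do not say whether a line was a single clone or a pool, and give the promoter of neither virus.

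Urokinase, encoded by PLAU, and tissue-type plasminogen activator, encoded by PLAT, are secreted serine proteases that cleave plasminogen into plasmin. Plasmin dissolves fibrin and degrades matrix proteins. The urokinase receptor, encoded by PLAUR, is anchored in the membrane by a lipid tail and keeps urokinase at the cell surface. Protease nexin-1, encoded by SERPINE2, inhibits thrombin, urokinase and tissue-type activator, and plasminogen activator inhibitor 2, encoded by SERPINB2, inhibits both activators. In stomach tumours, urokinase and its receptor are known for their link to invasion.

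Totals ran from 14792869 to 16777792 counts per library, and the scaling factors from 0.983 to 1.01. SIX2 had 369 and 379 counts in control and SIX2-labelled replicate 1, and 597 and 605 in replicate 2, so it did not follow the label. The groups are therefore called control and SIX2-labelled, and a direction between them is one between labels. The libraries resembled each other by number: log2 levels correlated at 0.994 and 0.990 (Pearson, across 16343 genes, which are not independent replicates) within a number. Within a label the correlations were 0.936 and 0.937. Of the 6 epithelial markers, KRT8 and KRT18 were abundant, CDH1 lay between 5.31 and 21.9 CPM (counts per 1000000 of the scaled library), and KRT19 was at 0 to 0.133 CPM. The 6 immune markers summed to 1.97 to 3.53 CPM, mostly CSF1R (1.61 to 2.67 CPM), with PTPRC and CD3E at 0. The 5 endothelial markers summed to 8.60 to 13.5 CPM, mostly CDH5 (7.67 to 11.8 CPM), with KDR at 0.

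Promoter windows of the members are shown because PLAU and PLAUR stood higher together in 1 pair of libraries, where PLAT and SERPINE2 were also higher. In addition, SERPINE2 differed most between numbers, and SERPINB2 was not detected. RefSeq windows (GRCh38.p14, 250 bases before to 50 after a transcript start, 300 in all) were found for 4 of the 5 members, and PLAT had no entry. Where a gene had more than 1 window, the one nearest the start of its principal GENCODE transcript is given. Capitals mark matches, on either strand, to AP-1 (TGANTCA), an element of the kind bound by SIX2 and its relatives (TCAGGTT), the SP1 box (GGGCGG) and the TATA box (TATAAA), which do not overlap one another here.
PLAU, chr10:73910882-73911181, plus strand: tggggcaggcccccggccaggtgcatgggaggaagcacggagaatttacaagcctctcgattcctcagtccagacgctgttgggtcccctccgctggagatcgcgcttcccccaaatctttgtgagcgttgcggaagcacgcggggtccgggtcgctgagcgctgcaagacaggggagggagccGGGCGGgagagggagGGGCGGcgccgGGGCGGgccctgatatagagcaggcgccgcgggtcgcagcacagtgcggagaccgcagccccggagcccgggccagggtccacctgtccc
PLAUR, chr19:43670120-43670419, minus strand: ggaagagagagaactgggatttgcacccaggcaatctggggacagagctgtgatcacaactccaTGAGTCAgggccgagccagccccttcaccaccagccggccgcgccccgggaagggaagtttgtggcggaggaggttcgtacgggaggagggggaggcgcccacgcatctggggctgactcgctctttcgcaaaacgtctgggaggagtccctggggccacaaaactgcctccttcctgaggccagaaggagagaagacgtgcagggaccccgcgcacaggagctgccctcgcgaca
SERPINE2, chr2:224038591-224038890, minus strand: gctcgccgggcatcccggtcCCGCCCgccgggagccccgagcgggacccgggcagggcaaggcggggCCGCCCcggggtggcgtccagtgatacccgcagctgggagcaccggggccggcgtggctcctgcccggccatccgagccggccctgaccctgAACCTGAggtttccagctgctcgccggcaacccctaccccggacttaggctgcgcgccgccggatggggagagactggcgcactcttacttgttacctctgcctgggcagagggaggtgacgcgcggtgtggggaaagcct
SERPINB2, chr18:63887455-63887754, plus strand: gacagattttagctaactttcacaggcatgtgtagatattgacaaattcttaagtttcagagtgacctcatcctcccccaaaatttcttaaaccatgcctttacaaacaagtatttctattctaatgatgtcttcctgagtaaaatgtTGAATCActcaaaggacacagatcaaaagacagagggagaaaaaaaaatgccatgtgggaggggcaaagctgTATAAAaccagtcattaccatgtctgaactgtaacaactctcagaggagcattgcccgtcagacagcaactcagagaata

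The PLAU window held 3 SP1 boxes and none of the other motifs. The PLAUR window held 1 AP-1 match, 186 to 180 bases before the RefSeq start of the window. The SERPINE2 window held 2 SP1 boxes and 1 SIX2-type match, 91 to 85 bases before its RefSeq start and on the opposite strand. SERPINB2 was the only one of these 4 windows with both an AP-1 match and a TATA box, the latter 30 to 25 bases before its RefSeq start. The principal GENCODE start lies 181 bases upstream of the RefSeq start in PLAUR, within the AP-1 match. In SERPINE2 it lies 679 bases upstream, outside the window, and in PLAU it lies 25 bases downstream. Of 35116 RefSeq windows of this length, 7.71% held an AP-1 match, 3.37% the SIX2-type element, 45.0% an SP1 box and 11.5% a TATA box. A match describes these letters and is not a bound site.

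The urokinase receptor gene was the most abundant member and SERPINB2 the least. Levels were compared per length, as counts per kilobase of the gene per 1000000 of the scaled library (FPKM), with the gene length given in the files, which for each member equals all its annotated GENCODE exons together. PLAUR was at 17.1 FPKM in control 1, 9.32 in control 2, 16.8 in SIX2-labelled 1 and 15.0 in SIX2-labelled 2. PLAU was at 3.86, 3.38, 4.50 and 5.40 FPKM in the same order, SERPINE2 at 2.59, 0.591, 2.52 and 0.790, and PLAT at 0.292, 0.253, 0.229 and 0.354. In each library PLAUR thus stood above PLAU, PLAU above SERPINE2 and SERPINE2 above PLAT, and the ranges of neighbours in that order did not overlap. Among tested genes, 79.2% had a lower mean FPKM than PLAUR, 49.4% than PLAU, 29.4% than SERPINE2 and 6.30% than PLAT.

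The place of SERPINE2 depended on the length used. Its annotated exons span 8891 bases, against 2195 bases in its principal transcript. With principal transcripts, an alternative chosen after the data were seen, SERPINE2 was at 10.5 and 10.2 FPKM in control and SIX2-labelled replicate 1, above PLAU at 4.91 and 5.72. In replicate 2 it was at 2.39 and 3.20 FPKM, below PLAU at 4.30 and 6.87. PLAUR stayed highest and PLAT lowest of the detected members with either length in each library.

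**Figure D1:**
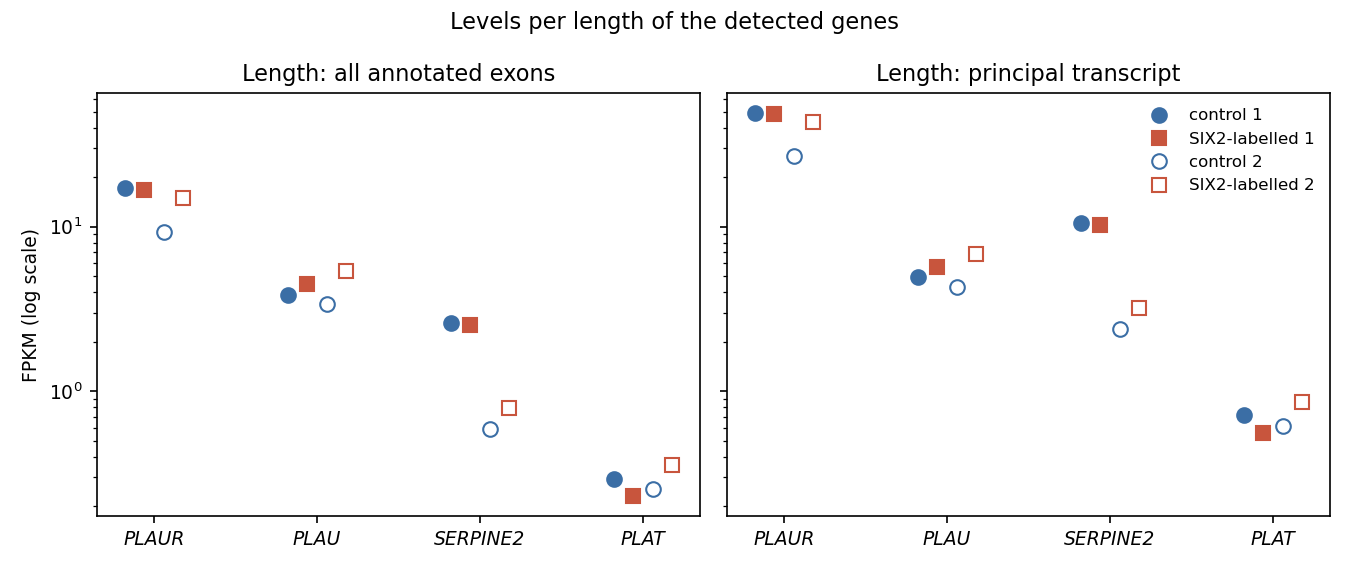
Levels per length of the 4 detected members in each library, on a log scale, with all annotated exons (left) or the principal transcript (right) as the length; filled symbols are number 1 and open symbols number 2. PLAUR is highest in both panels, and SERPINE2 lies below PLAU on the left but above it in number 1 on the right.

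PLAU, the urokinase gene (ENSG00000122861, chromosome 10, 73909177 to 73917497, plus strand, GRCh38), had 171 counts in control 1, 167 in control 2, 219 in SIX2-labelled 1 and 252 in SIX2-labelled 2. These were 11.4, 9.97, 13.3 and 15.9 CPM. Both SIX2-labelled libraries stood above both controls, at 14.6 ± 1.89 CPM against 10.7 ± 1.01 CPM (SD, n = 2). PLAU did not pass the threshold of 0.05, with a log2 fold change of 0.45 (SE 0.30; edgeR adjusted p = 1.00). Here and in what follows the test is the quasi-likelihood F test of edgeR, with p-values adjusted over all 16343 genes by the Benjamini-Hochberg method. In that comparison 0% of tested genes passed, with 12 at an unadjusted p under 0.05, and DESeq2 and limma-voom also called 0, with 2 and 10. Within number 1 the SIX2-labelled library had 1.16 times the level of the control (95% counting interval 0.949 to 1.43), and within number 2 it had 1.60 times (1.31 to 1.96). These intervals, here and in what follows, are exact binomial, cover counting error only and rest on 1 library a side.

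Between numbers PLAU showed no call. It averaged 12.3 ± 1.32 CPM over the libraries numbered 1 and 13.0 ± 4.23 CPM over those numbered 2 (SD, n = 2). The log2 change of number 2 against number 1 was 0.07 (SE 0.21; edgeR adjusted p = 0.827). The number 2 libraries lay on either side of both number 1 libraries. Another gene, C10orf55, runs over PLAU on the opposite strand and shares 916 exonic bases with it, so without a known strand setting their reads cannot be told apart. C10orf55 was assigned 3 to 9 counts per library.

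PLAT, the tissue-type activator gene (ENSG00000104368, chromosome 8, 42175233 to 42207724, minus strand), was near the lower end of detection. It had 29 and 28 counts in controls 1 and 2, and 25 and 37 in SIX2-labelled 1 and 2, or 1.93, 1.67, 1.51 and 2.34 CPM. The SIX2-labelled libraries were the lowest and the highest of the 4, so the groups overlapped. The log2 fold change was 0.10 between labels (SE 0.50; edgeR adjusted p = 1.00) and 0.22 between numbers (SE 0.38; edgeR adjusted p = 0.669). The within-number ratio of SIX2-labelled to control was 0.783 within number 1 (interval 0.440 to 1.39) and 1.40 within number 2 (0.834 to 2.38). Both intervals included 1, and the size of change that could be detected at these counts was not tested.

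PLAUR, the receptor gene (ENSG00000011422, chromosome 19, 43646095 to 43670547, minus strand), was low in a single library. It had 1146 counts in control 1, 696 in control 2, 1233 in SIX2-labelled 1 and 1057 in SIX2-labelled 2. Those counts were 76.4, 41.5, 74.7 and 66.9 CPM, so control 2 stood below the other 3. The controls spanned both SIX2-labelled libraries, and the change between labels was 0.26 on the log2 scale (SE 0.35; edgeR adjusted p = 1.00). Within number 1 the ratio of SIX2-labelled to control for PLAUR was 0.978 (0.902 to 1.06), and within number 2 it was 1.61 (1.46 to 1.77). The difference between these ratios was not tested, since each number holds 1 library per label.

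Between numbers PLAUR was lower in number 2, at 54.2 ± 17.9 CPM against 75.5 ± 1.20 CPM in number 1 (SD, n = 2). The numbers did not overlap, and the log2 change was -0.48 (SE 0.17; edgeR adjusted p = 0.0364). Of all tested genes 43.8% passed in that comparison, 21.6% lower and 22.2% higher, so a call here is common. Without control 2 the change was -0.17 (edgeR adjusted p = 0.197) and PLAUR no longer passed. Taken by label, number 2 had 0.544 times the level of number 1 in controls (0.494 to 0.598) and 0.895 times in SIX2-labelled libraries (0.824 to 0.973). The RNA gene RN7SL368P lies inside PLAUR on the same strand but shares 0 exonic bases with it.

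SERPINE2, the protease nexin-1 gene (ENSG00000135919, chromosome 2, 223975112 to 224039319, minus strand), divided the libraries by number. It had 345 and 370 counts in control and SIX2-labelled replicate 1, and 88 and 111 in replicate 2. As CPM, these were 23.0 and 22.4 in number 1, and 5.25 and 7.02 in number 2. The libraries numbered 1 averaged 22.7 ± 0.412 CPM and those numbered 2 averaged 6.14 ± 1.25 CPM (SD, n = 2), a level 3.70-fold higher in number 1. The log2 change of number 2 against number 1 was -1.89 (SE 0.18; edgeR adjusted p = 3.13e-06). It kept its sign and its call under all 10 alternatives tried, with values from -2.11 to -1.68.

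The same fall appeared under each label. In controls number 2 had 0.228 times the level of number 1 (interval 0.179 to 0.289), and in SIX2-labelled libraries 0.313 times (0.251 to 0.388). Only 1.41% and 2.50% of tested genes had a lower ratio in these pairs. Between labels the mean of SERPINE2 was 14.1 ± 12.5 CPM for controls and 14.7 ± 10.9 CPM for SIX2-labelled libraries (SD, n = 2), with a log2 change of 0.06 (SE 0.90; edgeR adjusted p = 1.00). Within number 1 the ratio of SIX2-labelled to control was 0.975 (0.839 to 1.13), and within number 2 it was 1.34 (1.00 to 1.79).

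SERPINB2, the plasminogen activator inhibitor 2 gene (ENSG00000197632, chromosome 18, 63871692 to 63903890, plus strand), had 0 counts in all 4 libraries. A count of 0 allows up to 3 counts, or 0.179 to 0.200 CPM depending on the library. SERPINB10, a serpin gene on the same strand that shares 547 exonic bases with it, had 1 count in SIX2-labelled 2 and 0 elsewhere. No fold could be given for SERPINB2.

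**Figure D2:**
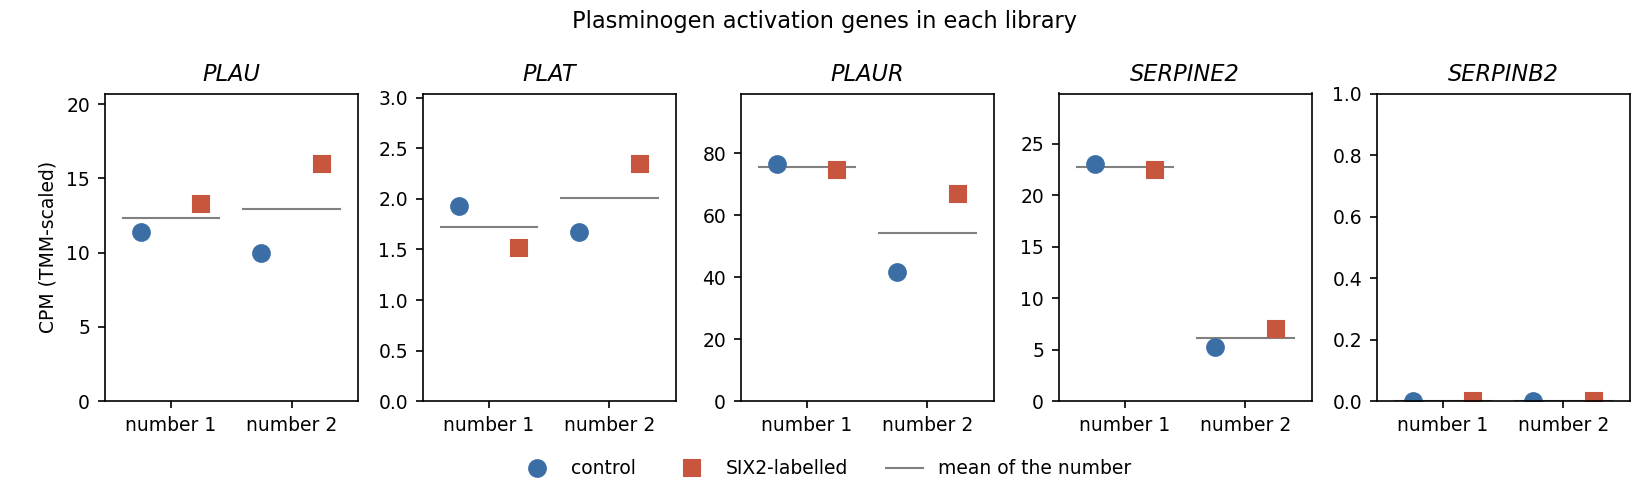
CPM of each member in each library (circles, control; squares, SIX2-labelled), with a line at the mean of each number. SERPINE2 falls from 22.7 to 6.14 CPM between numbers, PLAUR is lowest in control 2, and SERPINB2 is at 0 throughout.

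In number 2 each of the 4 detected members was higher in the SIX2-labelled library than in the control, with ratios from 1.34 to 1.61. The counting interval lay above 1 for PLAU and PLAUR, only just above 1 for SERPINE2, and included 1 for PLAT. For SERPINE2 the lower end was 0.002 on the log2 scale. With library totals only, its log2 difference was 0.40 instead of 0.42, a shift larger than that margin. Among all genes with counts in this pair, 20.3% had an interval above 1 and 20.2% below. In number 1 the interval included 1 for all 4 members, where 12.2% of genes lay above and 11.4% below. PLAU and PLAUR in number 2 exceeded the ratios of 97.3% and 97.6% of tested genes, against 85.6% and 42.0% in number 1. These values describe single libraries and have no replicate check.

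**Figure D3:**
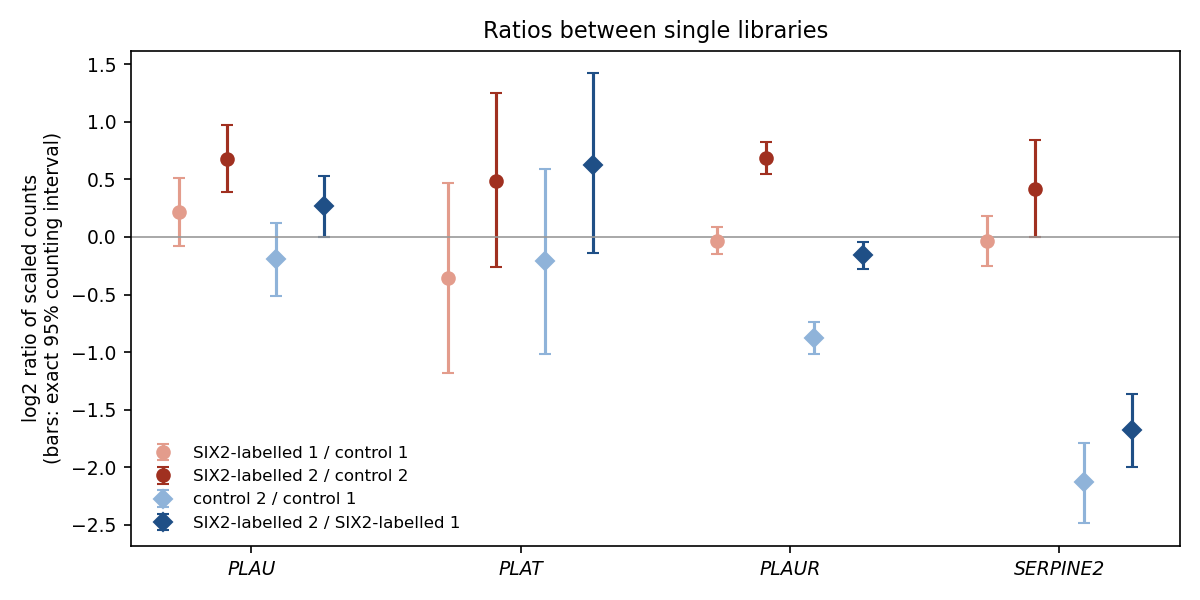
Log2 ratios of scaled counts between single libraries, with exact 95% counting intervals; circles compare labels within a number and diamonds compare numbers within a label. The SERPINE2 diamonds lie at -2.13 and -1.67, and in number 2 the label ratios of PLAU and PLAUR are 0.68 and 0.69.

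The ratio of the 2 activators to the 2 inhibitors among the members was higher in number 2. The summed FPKM of PLAU and PLAT divided by that of SERPINE2 and SERPINB2 was 1.61 in control 1 and 1.87 in SIX2-labelled 1. It was 6.15 in control 2 and 7.29 in SIX2-labelled 2. With principal transcript lengths the same ratios were 0.537, 0.615, 2.05 and 2.42, so whether activators exceeded inhibitors in number 1 depended on the length, while number 2 was higher with either. With SERPINB2 at 0 and PLAT low, this was nearly the ratio of PLAU to SERPINE2, at 1.49, 1.78, 5.72 and 6.84 in the same order, and so gave again the lower SERPINE2 level of number 2. Inhibitors that are not members, such as neuroserpin, were not in the sum. The ratio of PLAUR to PLAU in FPKM was 4.44 and 3.73 in number 1, and 2.76 and 2.78 in number 2. These ratios were not tested.

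Genes that act on or around the members gave calls in both directions between numbers. Of 24 other genes of the plasminogen system, 15 were tested, of which 6 were higher in number 2, 2 were lower and 7 did not pass. Of all tested genes 43.8% passed (22.2% higher, 21.6% lower), so 8 calls among 15 genes lie near that share. Their median log2 change was 0.08, beside 0.01 over all tested genes. It ran from -0.08 (without SIX2-labelled 2) to 0.23 (without control 2) when 1 library was left out, so its sign was not stable. Plasminogen itself (PLG) had 0 counts in all libraries, as did plasma kallikrein (KLKB1), which can activate pro-urokinase, and protein C inhibitor (SERPINA5). ST14, which encodes matriptase, a membrane protease that activates pro-urokinase, had 86.8 CPM in control 1, 85.5 in SIX2-labelled 1, 23.3 in control 2 and 26.5 in SIX2-labelled 2, a log2 change of -1.79 (SE 0.12).

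Endocytic receptor genes of the list were higher in number 2. LRP1, the main endocytic receptor for urokinase bound to its inhibitors, had 184 CPM in control 1, 176 in SIX2-labelled 1, 375 in control 2 and 254 in SIX2-labelled 2. Its log2 change was 0.80 (SE 0.15), and within number 2 the SIX2-labelled library had 0.678 times the control level (0.651 to 0.705). VLDLR, a related receptor, rose from 3.53 and 2.67 CPM to 17.1 and 21.6 CPM, a log2 change of 2.64 (SE 0.22). MRC2, a collagen receptor that associates with the urokinase receptor, rose from 38.1 and 36.7 CPM to 157 and 146 CPM, a change of 2.02 (SE 0.11).

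Matrix and inhibitor genes of the list gave the remaining calls. VTN, which encodes vitronectin, a matrix ligand of the urokinase receptor, was at 23.0 CPM in control 1, 19.9 in SIX2-labelled 1, 46.6 in control 2 and 68.6 in SIX2-labelled 2, a log2 change of 1.43 (SE 0.17). SERPINF2, the plasmin inhibitor gene, and SERPINI1, the neuroserpin gene whose product inhibits tissue-type activator, had log2 changes of 1.58 (SE 0.40) and 1.08 (SE 0.30). The fibrinogen beta chain gene FGB had 48 counts in number 1 and 0 in number 2, at least 16.5-fold higher in number 1 when number 2 is set to 3 counts in all. The largest adjusted p among these 8 genes was 0.0107, for SERPINI1 (edgeR), and SERPINI1 alone lost its call without SIX2-labelled 1 (edgeR adjusted p = 0.0782) or without SIX2-labelled 2 (0.0574).

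Genes whose products bind plasminogen at the cell surface showed no call between numbers, and 3 of the 4 were abundant. ANXA2 lay between 1174 and 1471 CPM, its partner S100A10 between 275 and 386 CPM, and ENO1 between 2419 and 2724 CPM. ANXA2 and ENO1 have processed pseudogenes and are uncertain. The fourth, the plasminogen receptor gene PLGRKT, was at 8.12 to 10.00 CPM. None of these 4 passed between labels either, nor did any of the 15 tested genes of the list. The median log2 change of the list between labels was 0.19, beside -0.0025 over all tested genes. It ran from -0.16 (without SIX2-labelled 2) to 0.26 (without SIX2-labelled 1) when 1 library was left out, so its sign was not stable. With the label as the only term, 0 of the 15 had an unadjusted p under 0.05 (edgeR). With the number as a second term 1 did, beside 501 of all 16343 tested genes, and 0 of the 15 passed the threshold.

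**Figure D4:**
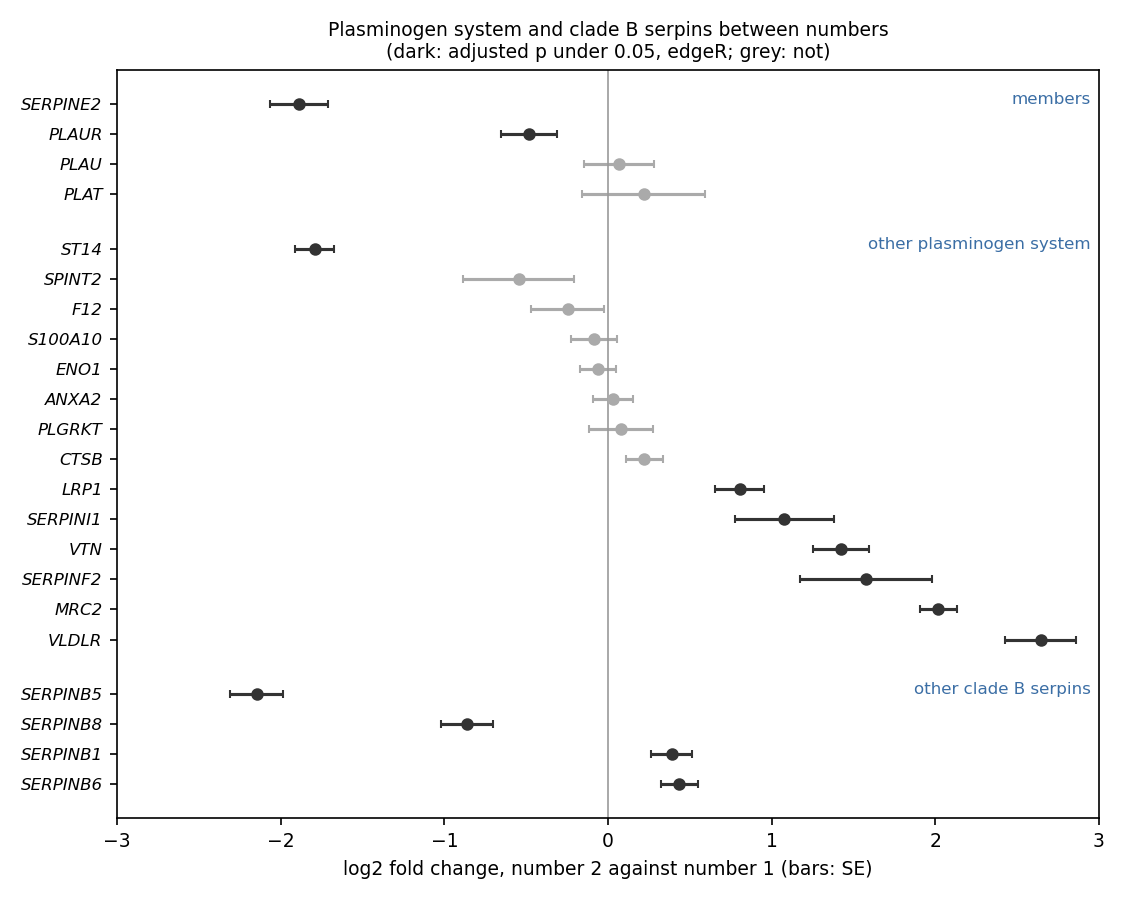
Log2 fold changes of number 2 against number 1 with SE for the tested members and both wider lists; dark points had an adjusted p under 0.05. SERPINE2 at -1.89 lies near ST14 at -1.79, opposite to MRC2 and VLDLR; FGB, with 0 counts in number 2, is not drawn.

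Clade B serpins, the family of SERPINB2, were mostly at or near 0. Of 12 other members 4 were tested, and 3 (SERPINB11, SERPINB12 and SERPINB13) had 0 counts in all libraries. Between numbers 2 were higher and 2 lower, with a median log2 change of -0.24, beside 0.01 over all tested genes, of which 22.2% were higher and 21.6% lower. SERPINB5, which encodes maspin, had 68.1 CPM in control 1, 68.8 in SIX2-labelled 1, 12.5 in control 2 and 18.5 in SIX2-labelled 2, a log2 change of -2.15 (SE 0.16). SERPINB8 changed by -0.86 (SE 0.16), SERPINB6 by 0.44 (SE 0.11) and SERPINB1 by 0.39 (SE 0.13), the last with an edgeR adjusted p of 0.0238. The calls on SERPINB1 and SERPINB6 were both lost without control 1 and also without SIX2-labelled 1, and that on SERPINB1 also without SIX2-labelled 2.

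Neighbouring genes differed from the members in places. Of all tested genes 43.8% passed between numbers, so a call on a neighbour is common. MRPL44, 7398 bases from SERPINE2, was also lower in number 2, by a log2 change of -0.55 (SE 0.13; edgeR adjusted p = 0.00371), while CUL3 on the other side had -0.17 (SE 0.12) and did not pass. CADM4, 6256 bases from PLAUR, had a log2 change of 1.56 (SE 0.18), opposite in sign to PLAUR. SMG9 on the other side of PLAUR, and CAMK2G and VCL beside PLAU, did not pass. Beside PLAT, IKBKB passed at 0.37 (SE 0.12) and AP3M2 did not. The nearest tested genes to SERPINB2 were SERPINB5 and HMSD, and HMSD did not pass.

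The profiles most like each member over the 4 libraries were found by Euclidean distance between centred log2 CPM among protein-coding genes with a mean of 5 CPM or more. For SERPINE2 these were PLA2G16, HRK and SPHK1, at distances of 0.081, 0.093 and 0.094. For PLAUR they were STARD10, JTB and ZNF613 (0.084 to 0.101), for PLAU RWDD1, ZNF684 and FAM131C (0.072 to 0.078), and for PLAT ANXA9, SYF2 and FAM173A (0.067 to 0.073). Among members the closest pair was PLAU and PLAT at 0.444 and the farthest PLAT and SERPINE2 at 2.09. PLAT had 25 to 37 counts per library and a mean of 1.87 CPM, under the limit of 5. Its distances therefore carry more counting error. With only 4 libraries many genes share such a profile.

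Marker levels moved with the number as well, in a comparison where 43.8% of all tested genes passed (22.2% higher, 21.6% lower). The 6 fibroblast markers summed to 58.5 CPM in control 1, 61.8 in SIX2-labelled 1, 289 in control 2 and 279 in SIX2-labelled 2, nearly all of it COL1A1, with COL1A2 and THY1 at 0 to 0.067 CPM. Of the 4 tested, COL1A1 and PDGFRB were higher in number 2 and FAP was lower, with 29 and 40 counts in number 1 and 0 and 1 in number 2, and COL3A1 did not pass. The 6 epithelial markers summed to 2645 and 2560 CPM in replicate 1 (control first) and to 3926 and 5146 CPM in replicate 2, nearly all of it KRT8 and KRT18. Of the 5 tested, these 2 were higher in number 2, CDH1 (log2 change -1.67, SE 0.20) and CLDN4 (-0.75, SE 0.18) were lower, and EPCAM did not pass. The list median was -0.35, beside 0.01 over all tested genes. Their part in the differences of SERPINE2 and PLAUR between numbers was not tested. Fewer cells of a kind and less RNA per cell cannot be told apart in these bulk libraries.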

How the data were processed

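Total RNA was extracted with Trizol and made into libraries with an Illumina TruSeq RNA kit, per the labels' protocols. Each deposited file gives, per its header, the raw read count of every Ensembl gene in 1 library. Although mm9, a mouse build, stands in the submitters' processing notes, all 58735 genes matched human GENCODE 29 (GRCh38) in identifier, chromosome, start and end. Aligner, counter and use of strand: not given in the sources used here. Triplicates and 2 repeats are both spoken of in the labels; 4 libraries were analysed. All p-values rest on the spread among these libraries alone, which may be technical.

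The main tests used edgeR 4.0.16 under R 4.3.3 (filterByExpr, TMM, quasi-likelihood test, Benjamini-Hochberg adjustment over 16343 genes, threshold 0.05). The label and the number were each fitted as the only term. Standard errors came from the F statistic. DESeq2 1.42.0, limma 3.58.1 (voom), other scalings, no filter, a second term and leaving out each library were alternatives. The members, the lists and the comparison of numbers were chosen with earlier results of these data known. Named genes were the members, the list genes with the smallest p that passed (up to 8 and 4) with genes at 0, the nearest tested neighbours, overlapping genes and the 3 nearest profiles. The other surface plasminogen-binding genes and the markers were named after their values were seen. Other genes of the system are not reported here.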

Additional observations from a re-analysis of the deposited data

How the results depend on the processing

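SERPINE2 between numbers kept its direction and call under all 10 alternatives. Across leave-one-out fits its log2 change ran from -2.11 to -1.68, that of PLAUR from -0.86 to -0.17, PLAU from -0.31 to 0.38 and PLAT from -0.040 to 0.46. PLAUR lost its call only without control 2 (adjusted p = 0.197, edgeR) and PLAU and PLAT, not called, changed sign (PLAU to -0.036 without control 1 and to -0.31 without SIX2-labelled 2). Between labels the same fits gave 0.31 to 0.58 for PLAU, -0.11 to 0.77 for PLAUR, -0.25 to 0.38 for PLAT and -1.01 to 1.49 for SERPINE2 (also -0.64), with no call; leaving out 1 library unbalances the numbers. Clade B serpins called higher in number 2 ranged from 0 to 2 in these fits, and all genes called from 4907 to 8335. Mean levels per length as TPM were 14.4 for PLAU, 48.9 for PLAUR, 0.947 for PLAT and 5.47 for SERPINE2, since the scale differs, and with principal transcript lengths 5.45, 41.9, 0.689 and 6.57 FPKM. The ratio of activators to inhibitors without length correction was 0.580 in control 1, 0.659 in SIX2-labelled 1, 2.22 in control 2 and 2.60 in SIX2-labelled 2. With principal transcripts it was 0.537, 0.615, 2.05 and 2.42 in the same order. Both settings put number 1 below 1, where the main setting gave 1.61 and 1.87. All 16 within-number differences under other scalings stayed within their counting intervals. A scaling moves all genes of a pair by the same small amount, so this outcome was nearly fixed in advance. Counts of 25 to 37 limit PLAT.

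With the number as a replicate block, 8 genes passed between labels against 0 without it, and 501 against 12 had an unadjusted p under 0.05 (edgeR). DESeq2 and limma-voom without the block called 0, with 2 and 10 under 0.05. No member passed with the block (log2 changes of 0.45 for PLAU, 0.32 for PLAUR, 0.08 for PLAT and 0.15 for SERPINE2). Deviations of same-numbered libraries from their group means correlated at 0.872 across genes, but the labels give the number no meaning beyond replicate and there are only 2 pairs.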
